A study of Homo sapiens with 6 samples.

Results

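The genes described here are YAP1 and WWTR1 (the gene of TAZ), the DNA-binding factors TEAD1 and TEAD4 with which they work, and 6 direct target genes, CYR61, CTGF, ANKRD1, AMOTL2, LATS2 and AXL. They were chosen by name, and all 10 were found once each among the 23524 genes of the deposited table under the symbols given here (CYR61 and CTGF are now called CCN1 and CCN2). RNA-Seq was performed on 6 libraries of Hep G2, a human liver tumor cell line. In the 3 control libraries the cells had been infected with an empty lentiviral vector, and in the 3 EFTUD2 libraries with a lentivirus carrying EFTUD2, a GTPase of the spliceosome, so that all cells carried a vector and only the second group carried the added gene. Stable cells were obtained by puromycin selection, and the labels do not say whether the 3 libraries of a group came from separate cultures, so that the spread between them may be technical.

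YAP and TAZ are coactivators that bind no DNA themselves. In the nucleus they attach to TEAD proteins and switch on genes of growth, adhesion and matrix signaling, whereas the Hippo kinases (STK3 and STK4, then LATS1 and LATS2) phosphorylate them and hold them in the cytoplasm. Their activity is therefore set largely by protein location, and mRNA levels of target genes are the usual indirect readout. In the liver the pathway is known for its control of organ size and for its activity in liver tumors.

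TEAD proteins recognise the bases GGAATG, and the promoters of CTGF and ANKRD1 are shown because both hold this motif more than once. RefSeq promoter windows (GRCh38.p14) were found for 7 of the 10 genes, all but CYR61, TEAD1 and TEAD4, and the 250 bases before each transcription start were searched for GGAATG on either strand. The CTGF window, on the minus strand at chr6:131951373-131951622, held 3 matches, starting at bases -169, -104 and -95 before the start site. The ANKRD1 window, on the minus strand at chr10:90921088-90921337, held 2 matches, at bases -220 and -128. Both are written 5′ to 3′ on the gene's strand with the motif in capitals.
CTGF: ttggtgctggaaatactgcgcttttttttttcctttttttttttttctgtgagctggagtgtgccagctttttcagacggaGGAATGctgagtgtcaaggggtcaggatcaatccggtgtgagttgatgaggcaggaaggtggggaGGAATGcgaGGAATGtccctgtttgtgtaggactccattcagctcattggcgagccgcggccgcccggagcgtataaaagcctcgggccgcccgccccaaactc
ANKRD1: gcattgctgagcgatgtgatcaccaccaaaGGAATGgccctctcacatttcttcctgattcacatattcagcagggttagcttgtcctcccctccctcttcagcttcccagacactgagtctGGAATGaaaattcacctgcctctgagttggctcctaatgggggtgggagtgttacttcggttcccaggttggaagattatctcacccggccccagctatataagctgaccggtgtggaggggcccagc

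Of the 35116 windows of all genes, 11.9% held the motif at least once, 0.94% at least 2 times and 0.0826% (29 windows) at least 3 times, as the CTGF window did. Single matches were found for YAP1, AMOTL2 and AXL, the last 2 at 1 of their 2 annotated start sites, and they are shown with their neighboring bases. The AXL and AMOTL2 matches are on the opposite strand and read CATTCC.
YAP1: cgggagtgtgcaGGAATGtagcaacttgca
AMOTL2: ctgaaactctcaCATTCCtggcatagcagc
AXL: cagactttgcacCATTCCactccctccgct
The YAP1 match began at base -162, the AMOTL2 match at base -69 and the AXL match at base -212. No match lay in the windows of WWTR1 and LATS2, and a match is only a string of letters, not a measured binding site.

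Expression was measured as FPKM (fragments per kilobase of transcript, scaled to the size of the library and rounded to 2 decimals by the authors), so levels can be compared between genes, but how deeply each library was sequenced is unknown. EFTUD2 itself (Entrez gene 9343, chromosome 17 from 44849948 to 44899445) stood at 41.1, 54.4 and 46.3 FPKM in control replicates 1 to 3, compared with 106.6, 102.9 and 109.5 FPKM in EFTUD2 replicates 1 to 3. This was a log2 fold change of 1.16 (limma adjusted p = 0.13). The groups did not overlap, and the 3 EFTUD2 libraries carried the gene at nearly the same level. They differed widely in other genes. EFTUD2 replicate 3 differed from replicates 1 and 2 with SDs of 0.51 and 0.60 in log2(FPKM + 1) over the 17222 genes that averaged 0.1 FPKM or more, whereas replicates 1 and 2 differed with an SD of 0.23 and the controls with SDs of 0.21 to 0.36. The hepatocyte markers, 10 of 10 of them tested, summed to 7721 to 12437 FPKM in the controls and to 10569 to 16564 FPKM in the EFTUD2 libraries, which fits the label of the cell line. Values of the 10 genes are therefore given library by library, and each fold change also without EFTUD2 replicate 3.

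All 10 genes were expressed, with means of at least 3.81 FPKM in each group, and all 10 passed the filter for testing. None passed the test over all genes. Limma on log2(FPKM + 1) with Benjamini-Hochberg adjustment over the 17222 genes called 0 of the 10 at an adjusted p under 0.05, and it called 0 of all genes (0.0%). At an unadjusted p under 0.05, 1 of the 10 (TEAD1) was higher in EFTUD2 cells and 0 were lower, against 4.4% of all genes tested that were higher and 7.9% that were lower. The balance of all genes depended on the scaling, with 757 higher and 1361 lower at this threshold as deposited and 1226 higher and 735 lower after scaling by the median of ratios. The median log2 fold change of the 10 genes was 0.05, beside -0.07 over all genes tested. By sign alone 6 of the 10 were higher as deposited, 8 after the median of ratios and 5 after scaling to a common sum per library. Over all genes tested 37.3% were higher by sign as deposited, and the sign counts of the lists below stand beside this share.

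**Figure D1:**
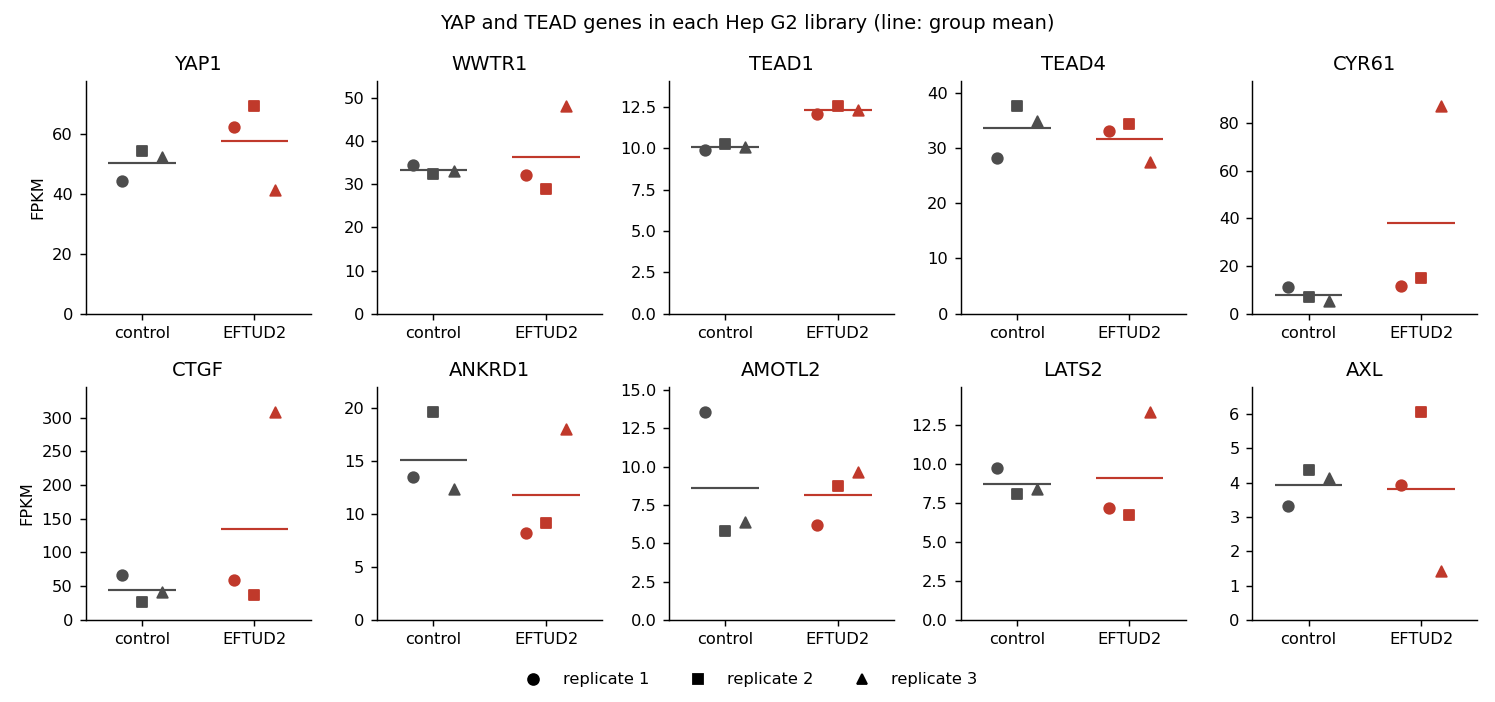
FPKM (vertical axes, from 0) of the 10 genes in 3 control (gray) and 3 EFTUD2 libraries (red), with circles, squares and triangles for replicates 1, 2 and 3 and a line at each group mean. The triangle of EFTUD2 replicate 3 stands far above the other points for CYR61 (87.1 FPKM) and CTGF (308.1 FPKM) and lowest for YAP1, TEAD4 and AXL.

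The coactivators were measured first. YAP1 (Entrez gene 10413, chromosome 11 from 102110447 to 102233424) stood at 44.2, 54.3 and 52.4 FPKM in the controls, compared with 62.5, 69.4 and 41.3 FPKM in EFTUD2 replicates 1 to 3. EFTUD2 replicates 1 and 2 lay above every control, while replicate 3 lay below them all. The group means were 50.3 ± 5.36 and 57.7 ± 14.7 FPKM (SD, n = 3 each), and the log2 fold change was 0.17 (standard error, SE, 0.20, 95% interval -0.32 to 0.65, limma adjusted p = 0.69). Without EFTUD2 replicate 3 the log2 fold change was 0.39 (SE 0.11, limma adjusted p = 0.19).

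WWTR1 (Entrez gene 25937, chromosome 3 from 149517235 to 149724788), which encodes TAZ, the paralog of YAP, took the opposite course. It stood at 34.6, 32.5 and 33.0 FPKM in the controls, at 32.1 and 28.9 FPKM in EFTUD2 replicates 1 and 2 and at 48.1 FPKM in replicate 3. The controls were close together (33.3 ± 1.09 FPKM, SD, n = 3), replicates 1 and 2 were just below them, and replicate 3 was the highest of the 6. The log2 fold change of 0.09 (SE 0.19, 95% interval -0.36 to 0.54, limma adjusted p = 0.83) changed sign to -0.13 without replicate 3.

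The ratio of YAP1 to WWTR1 brought these patterns together. It was 1.28, 1.67 and 1.59 in the controls, 1.95 and 2.40 in EFTUD2 replicates 1 and 2 and 0.857 in replicate 3, which was the only library with more WWTR1 than YAP1 mRNA. The sum of the 2 genes varied less, from 78.8 to 86.7 FPKM in the controls and from 89.4 to 98.3 FPKM in the EFTUD2 libraries.

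Among the TEAD factors, TEAD1 had the steadiest difference of all 10 genes. TEAD1 (Entrez gene 7003, chromosome 11 from 12674421 to 12944737) stood at 9.92, 10.3 and 10.1 FPKM in the controls, compared with 12.1, 12.6 and 12.3 FPKM in the EFTUD2 libraries. The groups did not overlap, and the spread within each was small, with means of 10.1 ± 0.18 and 12.3 ± 0.235 FPKM (SD, n = 3 each) and a ratio of 1.22. The log2 fold change was 0.26 (SE 0.10, 95% interval 0.03 to 0.50), with an unadjusted p of 0.034 and an limma adjusted p of 0.40. A two-sided exact permutation test gave p = 0.1, the smallest that 3 libraries against 3 allow. The log2 difference was 0.26 without EFTUD2 replicate 3 and remained between 0.25 and 0.28 when each library was left out in turn, but its unadjusted p was under 0.05 in only 1 of these fits, that without EFTUD2 replicate 3, and was above 0.05 with the replicate block and after scaling to a common sum per library. When limma down-weighted outlying libraries through array weights (EFTUD2 replicate 3 received 0.121), TEAD1 was the 1 gene of the 10 that was called (limma adjusted p = 0.047), where 4.21% of all genes were called higher.

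TEAD4 (Entrez gene 7004, chromosome 12 from 2959397 to 3040676), the most abundant TEAD gene here, stood at 28.2, 37.6 and 34.9 FPKM in the controls, compared with 33.1, 34.4 and 27.6 FPKM in the EFTUD2 libraries. The groups overlapped throughout (log2 fold change -0.08, SE 0.15, 95% interval -0.42 to 0.27, limma adjusted p = 0.81), and the sign turned under other scalings and without EFTUD2 replicate 3 (0.02). Neither of the other 2 TEAD genes passed the test. TEAD2 was at 10.8 to 12.5 FPKM in the controls, at 11.3 and 11.7 FPKM in EFTUD2 replicates 1 and 2 and at 7.93 FPKM in replicate 3, and TEAD3 lay between 16.9 and 18.3 FPKM in all 6 libraries. The 4 genes together gave 67.7 to 75.6 FPKM in the controls and 65.2 to 76.7 FPKM in the EFTUD2 libraries. Of this sum TEAD1 made up 13.5% to 14.7% in the controls and 16.2%, 16.4% and 18.9% in EFTUD2 replicates 1 to 3, and TEAD4 41.7% to 49.8% and 42.2% to 44.9%.

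**Figure D2:**
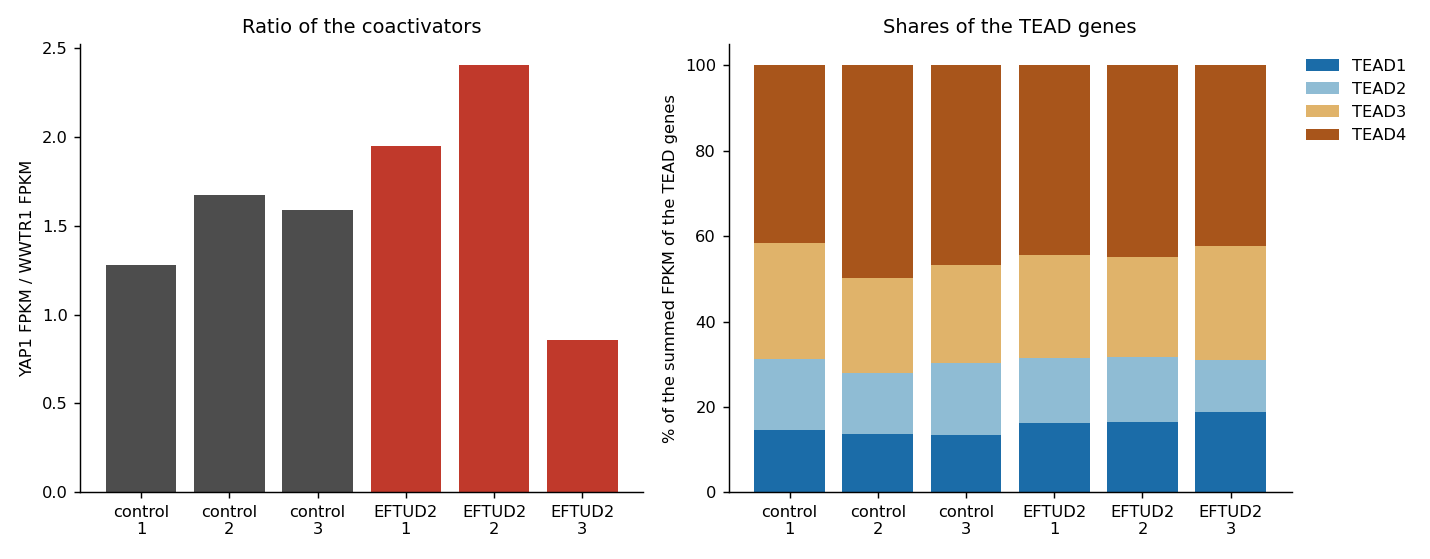
Left, the ratio of YAP1 to WWTR1 FPKM in each library; right, the share of TEAD1 to TEAD4 in their summed FPKM (%). The ratio ranges from 0.857 in EFTUD2 replicate 3 to 2.40 in EFTUD2 replicate 2, and the TEAD1 share is larger in each EFTUD2 library than in any control.

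The matricellular targets CYR61 and CTGF gave the largest differences between group means, and both came mainly from 1 library. CYR61 (Entrez gene 3491, chromosome 1 from 85580761 to 85583950) encodes a secreted integrin ligand and is a standard YAP target. It stood at 11.1, 6.83 and 5.44 FPKM in the controls, compared with 11.6, 15.1 and 87.1 FPKM in the EFTUD2 libraries. All 3 EFTUD2 libraries lay above all 3 controls, replicate 1 only just above control replicate 1, and replicate 3 stood apart at 11.2 times the control mean. The log2 fold change was 1.63 (SE 0.71, 95% interval -0.07 to 3.32, limma adjusted p = 0.40, exact two-sided permutation p = 0.1). Without EFTUD2 replicate 3 it was 0.75 (SE 0.27, limma adjusted p = 0.26).

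CTGF (Entrez gene 1490, chromosome 6 from 131948176 to 131951372), which encodes connective tissue growth factor, stood at 66.6, 25.9 and 41.1 FPKM in the controls. EFTUD2 replicates 1 and 2, at 59.4 and 37.4 FPKM, lay within the range of the controls, and replicate 3 reached 308.1 FPKM, 6.92 times the control mean. The log2 fold change of 1.08 (SE 0.76, 95% interval -0.74 to 2.89, limma adjusted p = 0.51) was 0.18 (SE 0.40) without that library. An antisense RNA overlaps CTGF in the annotation, and whether the authors counted by strand is not given in the sources used here.

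Both genes were highest in EFTUD2 replicate 3, and only CYR61 was also above the controls in replicates 1 and 2. With CYR61, TEAD1 was the only other gene of the 10 whose groups did not overlap, which makes 2 of 10 higher and 0 lower, against 7.92% of all genes tested that lay higher without overlap and 19.4% that lay lower. The CTGF to CYR61 ratio was 6.03, 3.80 and 7.56 in the controls and 5.12, 2.47 and 3.54 in the EFTUD2 libraries. CTGF made up 36.7% to 56.6% of the summed FPKM of the 6 targets in the controls and 61.6%, 45.0% and 70.4% in EFTUD2 replicates 1 to 3. This sum was 70.6 to 117.8 FPKM in the controls, 96.5 and 83.2 FPKM in EFTUD2 replicates 1 and 2 and 437.6 FPKM in replicate 3.

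**Figure D3:**
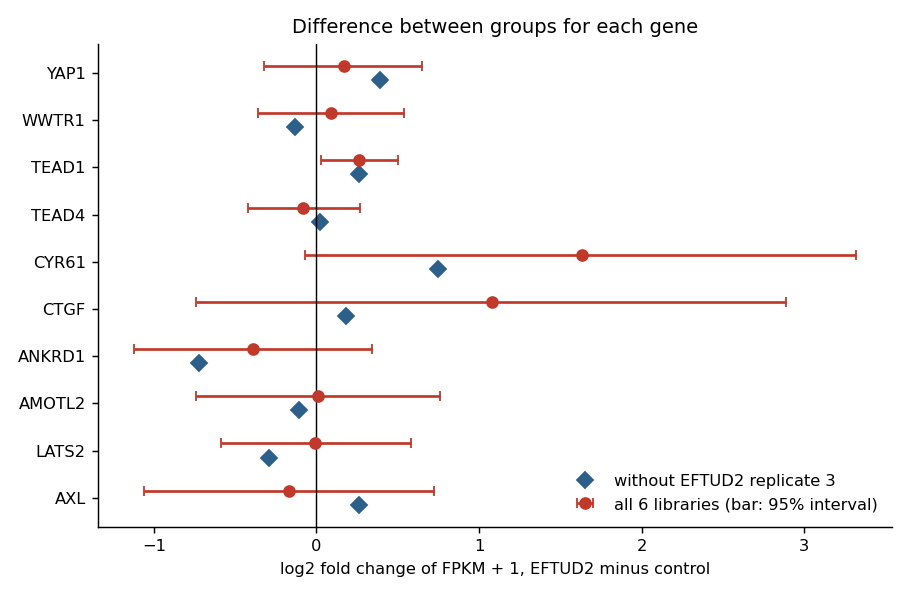
Log2 fold change of FPKM + 1 (EFTUD2 minus control, horizontal axis) for each of the 10 genes, with all 6 libraries (red, bars give the 95% interval from limma) and without EFTUD2 replicate 3 (blue). The interval of TEAD1, 0.03 to 0.50, is the only one that does not include 0, and the widest are those of CTGF and CYR61.

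ANKRD1 (Entrez gene 27063, chromosome 10 from 90912096 to 90921087) encodes an ankyrin repeat protein of muscle and a classical YAP and TEAD target. It stood at 13.5, 19.6 and 12.3 FPKM in the controls, at 8.19 and 9.11 FPKM in EFTUD2 replicates 1 and 2 and at 18.01 FPKM in replicate 3. The first 2 lay below every control, and replicate 3 lay within the control range. Its log2 fold change was -0.39 (SE 0.31, 95% interval -1.12 to 0.34, limma adjusted p = 0.55), and -0.72 without replicate 3 (SE 0.20, limma adjusted p = 0.17). In EFTUD2 replicates 1 and 2 CTGF was inside the control range and ANKRD1 below it. Both promoter windows repeat GGAATG, and whether the motif bears on these levels was not tested.

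The feedback genes AMOTL2 and LATS2 restrain YAP and are also induced by it. LATS2 (Entrez gene 26524, chromosome 13 from 20973036 to 21061586), a kinase that phosphorylates YAP and TAZ, stood at 9.74, 8.05 and 8.38 FPKM in the controls, at 7.14 and 6.74 FPKM in EFTUD2 replicates 1 and 2 and at 13.3 FPKM in replicate 3. The 2 lower libraries were below every control and replicate 3 was above every control, so the group means differed little (log2 fold change -0.01, SE 0.25, 95% interval -0.59 to 0.58). Without replicate 3 it was -0.29 (SE 0.11, limma adjusted p = 0.27). The paralog LATS1 showed another order, at 9.93, 7.66 and 7.19 FPKM in the controls, compared with 6.33, 6.09 and 3.95 FPKM in the EFTUD2 libraries. The LATS2 to LATS1 ratio was 0.981 to 1.17 in the controls, 1.13 and 1.11 in EFTUD2 replicates 1 and 2 and 3.37 in replicate 3.

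AMOTL2 (Entrez gene 51421, chromosome 3 from 134355345 to 134375417), a motin that binds YAP at cell junctions, stood at 13.6, 5.79 and 6.42 FPKM in the controls, compared with 6.17, 8.73 and 9.65 FPKM in the EFTUD2 libraries. Control replicate 1 was the highest library, at 2.22 times the mean of the other controls, and the groups overlapped (log2 fold change 0.01, SE 0.32, 95% interval -0.74 to 0.76, and -0.11 without EFTUD2 replicate 3). The same control was also the highest control for CTGF, at 1.99 times the mean of the others, and for CYR61, at 1.80 times. It was the highest control for WWTR1 (34.6 FPKM) and LATS2 (9.74 FPKM) as well. For YAP1 (44.2 FPKM), TEAD4 (28.2 FPKM) and AXL (3.32 FPKM) it was the lowest control. In each of these genes EFTUD2 replicate 3 lay at the same end of its own group, which did not hold for TEAD1 and ANKRD1. The reason was not tested.

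AXL (Entrez gene 558, chromosome 19 from 41219223 to 41261766), a receptor tyrosine kinase, was the least abundant of the 10 genes and the target whose level in EFTUD2 replicate 3 was low. It stood at 3.32, 4.38 and 4.14 FPKM in the controls, compared with 3.94, 6.06 and 1.42 FPKM in the EFTUD2 libraries. EFTUD2 replicate 2 was the highest and replicate 3 the lowest of the 6 (log2 fold change -0.17, SE 0.37, 95% interval -1.06 to 0.72, limma adjusted p = 0.83), and the sign turned to 0.26 without replicate 3. Its ligand GAS6 stood at 0.38, 0.32 and 0.27 FPKM in the controls, compared with 1.15, 1.47 and 2.48 FPKM in the EFTUD2 libraries (log2 fold change 1.0, SE 0.18, limma adjusted p = 0.27). The related ligand PROS1 stood at 23.1 to 29.3 FPKM in the controls, compared with 32.1 to 38.6 FPKM in the EFTUD2 libraries (log2 fold change 0.46, limma adjusted p = 0.40). Neither ligand overlapped between the groups, beside 7.92% of all genes tested that lay higher without overlap. GAS6 passed the test without EFTUD2 replicate 3 (limma adjusted p = 0.038), where 0.761% of all genes tested were called.

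EFTUD2 replicate 3 differed from replicates 1 and 2 over all genes tested (SDs of 0.51 and 0.60), and the 10 genes varied in the size and direction of this difference. TEAD1, TEAD4 and AMOTL2 differed by less than these SDs. On the log2(FPKM + 1) scale the difference was 2.68 for CTGF and 2.63 for CYR61, which placed them at positions 8 and 10 from the top among 17222 genes. ANKRD1 followed with 0.98, LATS2 with 0.85, WWTR1 with 0.64 and AMOTL2 with 0.35. TEAD1 was level, and TEAD4 (-0.28), YAP1 (-0.66) and AXL (-1.29) were lower in replicate 3. A difference of at least 1 in size (2-fold on this scale) was found for 3 of the 10 genes, CTGF, CYR61 and AXL, beside 6.9% of all genes tested. As these values compare 1 library with 2, they have no test.

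**Figure D4:**
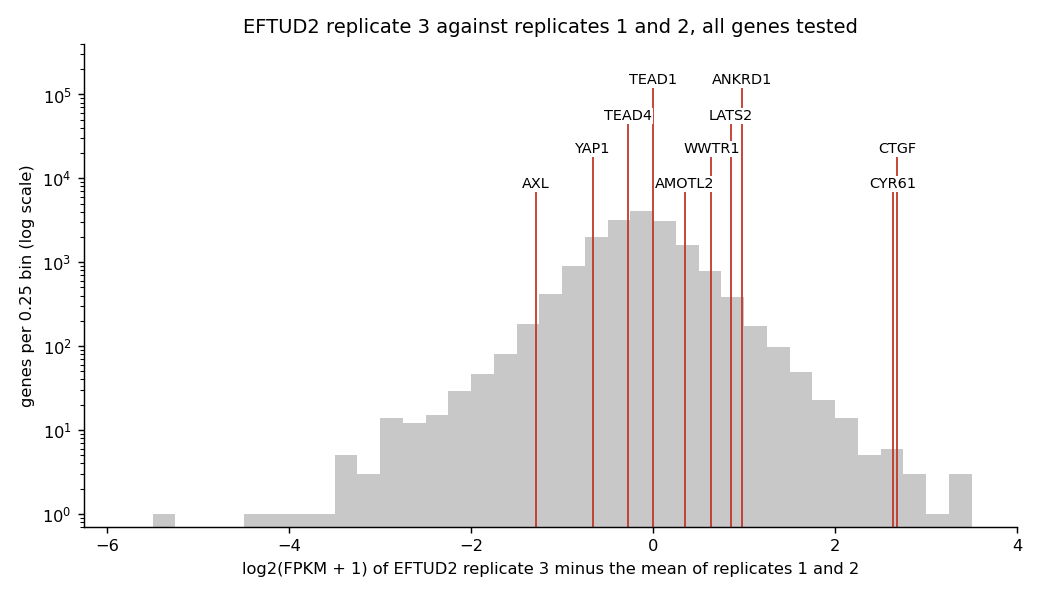
Histogram over all 17222 genes tested of log2(FPKM + 1) in EFTUD2 replicate 3 minus the mean of EFTUD2 replicates 1 and 2 (horizontal axis; genes per bin on a log scale, vertical axis), with the 10 genes as red lines. CTGF (2.68) and CYR61 (2.63) lie at the right end of the histogram, and AXL (-1.29) is the lowest of the 10.

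Without EFTUD2 replicate 3, 0 of the 10 genes were called by limma, where 131 genes (0.761% of all genes tested) were called. At an unadjusted p under 0.05 in that fit, 5 of the 10 differed, namely YAP1, TEAD1 and CYR61 higher and ANKRD1 and LATS2 lower, beside 16.7% of all genes. With 3 controls against 2 EFTUD2 libraries, 6 of the 10 did not overlap (these 5 and WWTR1), beside 39.9% of all genes. The direction was thus mixed among the targets also in these 5 libraries.

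Genes whose levels over the 6 libraries most resembled those of CYR61, the gene with the widest range, were CYP4F3, FDFT1 (squalene synthase), a transcript known only by a provider identifier, GCKR (the glucokinase regulator) and LRRC75A, with Pearson r from 0.9916 to 0.9967 on log2(FPKM + 1) among 12545 genes that averaged 1 FPKM or more. FDFT1 stood at 90.9 to 117.0 FPKM in the controls, at 108.0 and 120.5 FPKM in EFTUD2 replicates 1 and 2 and at 204.8 FPKM in replicate 3. The genes most like YAP1 were RNF213, CDCP1, APOC1, ADAR (an RNA-editing enzyme) and MAP2K6, with r from 0.9932 to 0.9979. RNF213 stood at 12.02, 15.3 and 14.5 FPKM in the controls, compared with 18.8, 20.6 and 10.7 FPKM in the EFTUD2 libraries. With 6 libraries and 1 of them far from the rest, high values are common, and 135 genes had an r above 0.95 with CYR61 and 105 with YAP1.

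The other genes of the pathway were described from lists chosen by name. Of 19 Hippo kinases, their scaffolds and upstream regulators, all of them tested, 0 passed the test, and 15 were lower and 4 higher. Among the 17222 genes tested, 10801 were lower and 6421 higher by sign. At an unadjusted p under 0.05, 4 of the 19 were lower, beside 7.9% of all genes, and 7 of the 19 lay lower without overlap, beside 19.4%. Higher without overlap lay 1 of the 19 (STK3), beside 7.92% of all genes. After scaling by the median of ratios, 10 of the 19 were lower and 9 higher, so this balance depended on the scaling. STK4 (MST1, a kinase that activates LATS) stood at 24.4, 24.7 and 23.9 FPKM in the controls, compared with 20.0, 18.3 and 16.6 FPKM in the EFTUD2 libraries (log2 fold change -0.40, SE 0.11, limma adjusted p = 0.40). STK3, the other such kinase named above, went the other way (log2 fold change 0.28, SE 0.14, limma adjusted p = 0.42). It stood at 4.21, 4.17 and 3.91 FPKM in the controls, compared with 4.40, 5.43 and 5.79 FPKM in the EFTUD2 libraries. FAT1, an atypical cadherin, stood at 43.3 to 52.8 FPKM in the controls, compared with 30.0 to 37.8 FPKM in the EFTUD2 libraries, and LATS1 had a log2 fold change of -0.53 (SE 0.20, limma adjusted p = 0.40). The kinase TAOK2 was at 20.6 to 22.3 and 12.8 to 20.2 FPKM.

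Of 9 cofactors and inhibitors of TEAD or YAP, 7 were tested and 0 passed, and 0 had an unadjusted p under 0.05. By sign 3 were higher and 4 lower, which turned to 5 and 2 after the median of ratios. VGLL3 and AMOTL1 reached the mean of 0.1 FPKM only through EFTUD2 libraries, so they could only count as higher. With a mean of at least 1 FPKM as the filter, 4 were tested, and 1 was higher and 3 lower. VGLL3, a TEAD cofactor, was at most 0.05 FPKM in the controls and in EFTUD2 replicate 3 (0.04 FPKM) and stood at 0.83 and 1.78 FPKM in EFTUD2 replicates 1 and 2. AMOTL1, a second motin, was at most 0.06 FPKM in the controls, compared with 0.30, 0.68 and 0.07 FPKM in the EFTUD2 libraries. VGLL4, which competes with YAP for TEAD, was at 15.4 to 19.4 and 16.1 to 17.0 FPKM. WTIP, a LIM protein that binds LATS, was at 5.50 to 5.84 and 4.3 to 4.94 FPKM.

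Beside 6 of the genes above, a published signature of 22 YAP and TAZ targets holds 16 others. Of these, 13 were tested, 0 passed, 1 was higher and 1 lower at an unadjusted p under 0.05 (IGFBP3 and NT5E, beside 4.4% and 7.9% of all genes), and by sign 7 were higher and 6 lower, with a median log2 fold change of 0.04. FOXF2 reached the mean of 0.1 FPKM only through EFTUD2 libraries, so it could only count as higher. With a mean of at least 1 FPKM as the filter, 5 were higher and 6 lower. With no filter except for genes at 0 in all libraries, 10 were higher and 6 lower. The genes that this setting added did not exceed 0.04 FPKM in any control, so they could hardly count as lower. IGFBP3, a binding protein of insulin-like growth factors, stood at 2.55, 0.27 and 0.73 FPKM in the controls, compared with 5.76, 7.02 and 17.4 FPKM in the EFTUD2 libraries. NT5E (CD73, an ectonucleotidase) was at 21.2, 10.9 and 14.99 FPKM in the controls, compared with 8.86, 7.80 and 11.1 FPKM in the EFTUD2 libraries. MYOF (myoferlin) was at 3.75 and 6.86 FPKM in EFTUD2 replicates 1 and 2 but at 0.47 FPKM in replicate 3, below the 0.55 to 2.13 FPKM of the controls, and FOXF2 was at 0.38, 0.93 and 0.01 FPKM, where no control exceeded 0.03 FPKM. GADD45A, named after its values were seen, was highest in EFTUD2 replicate 3 as CTGF was, with 95.5, 37.2 and 35.96 FPKM in the controls, 23.4 and 25.5 FPKM in EFTUD2 replicates 1 and 2 and 111.9 FPKM in replicate 3.

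Of 8 further genes that respond to YAP and TEAD, 7 were tested and 0 passed, and 3 were lower at an unadjusted p under 0.05, each below every control in all EFTUD2 libraries, beside 7.9% of all genes lower at that threshold and 19.4% lower without overlap. By sign 3 of the 7 were higher and 4 lower, or 4 and 3 after the median of ratios. Their median difference between EFTUD2 replicate 3 and replicates 1 and 2 was 0.64 in log2(FPKM + 1), beside -0.14 over all genes. For the 13 tested genes of the signature list the median of this difference was -0.06. FOSL1, a partner of TEAD at enhancers as part of AP-1, stood at 15.2, 18.5 and 12.1 FPKM in the controls, compared with 7.43, 8.27 and 5.96 FPKM in the EFTUD2 libraries (log2 fold change -0.97, SE 0.19, limma adjusted p = 0.27). AREG, a ligand of the EGF receptor, stood at 22.8, 30.4 and 26.8 FPKM and at 14.5, 9.31 and 15.3 FPKM (log2 fold change -1.0, SE 0.20, limma adjusted p = 0.31). TAGLN, an actin-binding protein, was at 23.1 to 29.4 FPKM in the controls, compared with 13.3, 6.80 and 17.1 FPKM in the EFTUD2 libraries. THBS1 (thrombospondin 1), named after its values were seen, was highest in EFTUD2 replicate 3 at 49.0 FPKM, with 23.2 and 21.1 FPKM in replicates 1 and 2 and 19.6 to 33.7 FPKM in the controls.

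**Figure D5:**
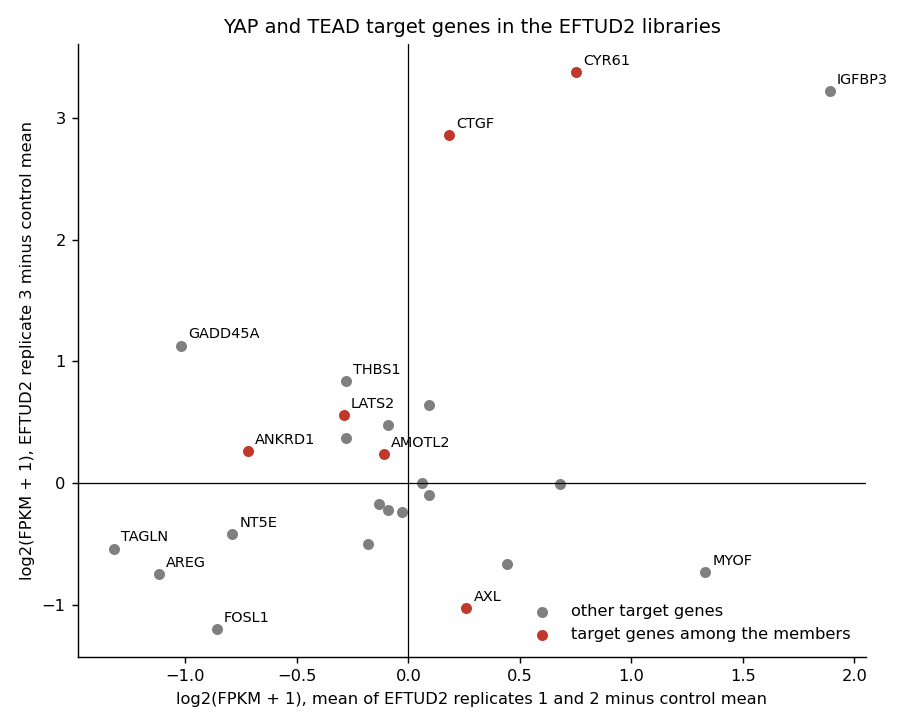
For 6 target genes among the 10 (red) and tested genes of both further target lists (gray, all but 1), the difference of log2(FPKM + 1) from the control mean in EFTUD2 replicates 1 and 2 (mean, horizontal axis) and in EFTUD2 replicate 3 (vertical axis). CYR61 is high on both axes, CTGF only on the vertical axis, and ANKRD1 lies to the left of 0 at -0.72, with no common direction among the targets.

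CYR61 and CTGF belong to the CCN family of secreted matrix proteins, and 4 relatives were near 0 in the controls. WISP1 was listed at 0 in all 6 libraries, and WISP3 did not exceed 0.06 FPKM in any. WISP2 stayed at or under 0.04 FPKM among the controls and reached 3.30, 10.99 and 0.38 FPKM in the EFTUD2 libraries, and NOV did not exceed 0.02 FPKM in the controls and reached 1.27, 3.37 and 0.11 FPKM. WISP2 and NOV were thus highest in EFTUD2 replicate 2, whereas CYR61 and CTGF were highest in replicate 3. Of the 10 relatives and partners of the targets, 7 were tested, 0 passed the test and 4 were higher at an unadjusted p under 0.05, beside 4.4% of all genes. By sign 7 were higher, beside 37.3% of all genes tested, or 6 after scaling to a common sum. WISP2 and NOV, counted among these, reached the mean of 0.1 FPKM only through the EFTUD2 libraries, so they could only count as higher. With no filter except for genes at 0 in all libraries, 9 were tested, and 8 were higher and 1 lower. In that fit 3 were higher at a limma unadjusted p under 0.05.

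Markers of other cell types moved between the same libraries, and their part in the results above was not tested. Vimentin, LDHB, KRT17, KRT7 and CD44, chosen for low values in these controls in earlier results, summed to 1.97 to 3.01 FPKM in the controls and to 143.5, 317.4 and 16.3 FPKM in EFTUD2 replicates 1 to 3. As they had been chosen for low control values, they could hardly count as lower, so this difference from the controls is no test. KRT17 gave 66.9, 135.1 and 9.29 FPKM of the sums in EFTUD2 replicates 1 to 3. The sums were highest in EFTUD2 replicate 2, as WISP2, NOV, VGLL3 and MYOF were. KRT7 is counted again among the biliary markers and KRT17 among the basal squamous markers. Of the biliary markers 5 of 7 were tested, and their sum was 488.6 to 560.3 FPKM in the controls and 283.9 to 369.8 FPKM in the EFTUD2 libraries. CFTR, also on the biliary list, was listed at 0 in all 6. Of the basal squamous markers 3 of 8 were tested, with sums of 34.7 to 51.9 and 39.3 to 198.1 FPKM, and KRT5 was listed at 0 in all libraries. Of the fibroblast markers 4 of 10 were tested, with sums of 0.53 to 1.65 FPKM in the controls and 2.35 to 4.91 FPKM in the EFTUD2 libraries, and COL1A2 was listed at 0 in all 6. Endothelial markers (4 of 8 tested) summed to at most 1.77 FPKM in any library. Of 8 macrophage markers 3 were tested, with sums of 774.9 to 2280 and 883.2 to 1747 FPKM that came almost all from lysozyme (LYZ), and TYROBP was listed at 0 in all 6. As these are bulk samples, a change in the number of cells of a kind and a change of RNA per cell cannot be told apart.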

How the data were processed

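Poly-A RNA of 6 Hep G2 samples was sequenced on the BGISEQ-500 platform, and the authors deposited FPKM values per gene and library, rounded to 2 decimals. The submitters' processing notes name HISAT2, Bowtie2, RSEM and DESeq2 and the build hg38, without versions. The depth is unknown, so no counting interval can be given. Samples were grouped by their titles.

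From the deposited FPKM, log2(FPKM + 1) was computed, and the 17222 genes that averaged 0.1 FPKM or more were compared with limma 3.58.1 (lmFit, eBayes with trend) in R 4.3.3, with Benjamini-Hochberg adjustment over all of them. A two-sided exact permutation test was added for each member. The fit was tested on simulated data. Figures were drawn with Python 3.11.15 and matplotlib 3.10.9. Coordinates and promoter sequences are from RefSeq (GRCh38.p14). From each pathway list at most 4 genes with the largest log2 fold change were named. GADD45A, THBS1 and STK3 were added after their values were seen. Marker lists are given as sums, with the defining markers listed at 0 named. The values of 1 gene of these lists are not reported here. The members and lists were chosen with earlier results of these data known. The alternatives were other pseudocounts, filters and scalings, array weights, robust empirical Bayes, a block for the replicate number, and the omission of each library.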

Additional observations from a re-analysis of the deposited data

How the results depend on the processing

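Over all genes, 0 were called in the fit as reported and in the 16 alternatives except with array weights (1355) and when 1 library was left out (0 to 131, the highest without EFTUD2 replicate 3). Of the 10 genes, 0 were called except with array weights (1, TEAD1, log2 fold change 0.25), and the number without overlap between the groups was 2, and 2 to 6 when 1 library was left out. The log2 fold change of EFTUD2 itself was 1.15 with array weights (adjusted p = 0.0018 from limma) and 1.07 to 1.26 when 1 library was left out, with an adjusted p of 0.031 without EFTUD2 replicate 3. YAP1, TEAD1, CYR61, CTGF and ANKRD1 kept their direction in all 16 alternatives, but not their size. When 1 library was left out, the log2 fold change ranged from 0.02 (without EFTUD2 replicate 2) to 0.39 (without replicate 3) for YAP1, from 0.75 to 2.15 for CYR61, from 0.18 to 1.69 for CTGF and from -0.72 to -0.19 for ANKRD1. The sign of the others turned in some. With array weights the log2 fold change was -0.06 for WWTR1, -0.01 for AMOTL2 and 0.04 for AXL. With the median of ratios it was 0.06 for TEAD4 and 0.13 for LATS2, with quantile normalization 0.03 and 0.12, and with a common sum per library it was -0.03 for AMOTL2. When 1 library was left out, it ranged from -0.13 to 0.23 for WWTR1, from -0.19 to 0.02 for TEAD4, from -0.20 to 0.35 for AMOTL2, from -0.29 to 0.15 for LATS2 and from -0.51 to 0.26 for AXL. The cause was not tested. With the replicate number as a block, limma called 0 genes. Deviations from the group means did not regularly go together in samples of the same number (r = -0.299, 0.353 and -0.094 for numbers 1 to 3). Between unlike numbers r ranged from -0.397 (control replicate 2 with EFTUD2 replicate 3) to 0.382 (control replicate 1 with EFTUD2 replicate 3). The numbers were therefore not taken to pair the samples. With FPKM alone, the depth behind low values such as those of VGLL3 or FOXF2 is unknown.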
